A study of Mus musculus with 4 samples.

Results

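The heparan sulfate sulfotransferases described here are 9 genes, namely the N-deacetylase/N-sulfotransferases Ndst3 and Ndst4, the 6-O-sulfotransferases Hs6st1, Hs6st2 and Hs6st3, and the 3-O-sulfotransferases Hs3st1, Hs3st2, Hs3st4 and Hs3st5. They are 9 of the 32285 genes in the deposited tables, and all 9 were found by symbol in all 4 libraries. They were chosen by their values in these same libraries, the level over neuron types, glia and times, without a record of which value decided, so the levels and the ZT20 to ZT8 differences below are descriptions. The adjusted p-values state the size of a difference against the spread between libraries and are not independent evidence. The study profiled single nuclei of the hypothalamic paraventricular nucleus (PVN), which governs endocrine, stress and feeding responses, by droplet RNA sequencing of transcript 3′ ends. The groups compared were ZT20 in the dark phase and ZT8 in the light phase, where zeitgeber time (ZT) counts hours from lights on. Each group had 2 libraries, and each library pooled the micropunched PVNs of 5 male C57Bl6 mice, given as 10 weeks old in the sample labels and as 10 to 12 weeks in the design. No genotype or agent differed between the groups, and time was the only label that did.

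Heparan sulfate is a sugar chain carried by syndecans, glypicans and other core proteins on the cell surface and in the matrix. The chain is first de-acetylated and sulfated on nitrogen by the NDST enzymes, then epimerised and 2-O-sulfated, then 6-O-sulfated by the HS6ST enzymes and last 3-O-sulfated by the HS3ST enzymes. The resulting sulfation pattern sets which growth factors, guidance molecules and synaptic adhesion proteins the chain binds, and 3-O-sulfation is the rarest of these modifications.

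Counted molecules (UMIs, unique molecular identifiers) summed to 63558166 and 61933800 over the 8320 and 9413 barcodes of ZT20, and to 57970649 and 69223344 over the 6453 and 6923 barcodes of ZT8. The filters left 7747 and 8667 nuclei at ZT20, and 6053 and 6513 at ZT8, and between 41 and 69 barcodes of a library also occurred in another. Nuclei were clustered without any of 68 heparan sulfate pathway genes, and clusters were named from marker genes. Neurons with PVN markers were fewer at ZT8. Cluster 32, led by Oxt, Avp and Sim1 and the only one named Sim1 PVN-like, held 32 and 25 nuclei at ZT20, against 1 and 2 at ZT8. Cluster 11, led by Sim1 and kept among other Slc17a6 neurons, held 187 and 162 nuclei at ZT20, against 43 and 34 at ZT8. The makeup of the neurons differed as well, with neurons carrying thalamic markers making up 18.4 and 16.6% of neuron-like nuclei at ZT20, against 32 and 32.2% at ZT8, and GABAergic-like neurons 26.1 and 26.4% at ZT20, against 20.8 and 19.7% at ZT8. Neurons with no class name made up 9.72 and 9.6% at ZT20, against 1.21 and 0.9% at ZT8. The members' differences over all neurons are therefore given beside those in a draw of equal nuclei per cluster. The draw took the same number of nuclei of each of 28 of the 36 neuron clusters from every library, 1546 nuclei per library. Clusters with under 10 nuclei in any library were left out, namely 23, 26, 27 and 32 to 36. Values of the equal draw therefore do not cover those clusters, which include the Sim1 PVN-like cluster 32. In sums over nuclei, fewer cells of a type and less RNA per cell cannot be told apart.

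Most of these transcripts were found in neurons. Levels are given as CPM, the gene's count scaled to 1000000 UMIs of the class, and CPM of different genes are not compared, since longer genes can yield more reads in nuclei. Hs6st3 had 800.2 and 777.1 CPM in neuron-like nuclei at ZT20, and 850.5 and 874.3 CPM at ZT8. In oligodendrocyte-like nuclei it had 24.14 and 22.7 CPM at ZT20, and 26.34 and 26.65 CPM at ZT8. Those oligodendrocyte-like nuclei also held 6 neuron markers at a summed 1377 and 1322 CPM at ZT20, and 1535 and 1566 CPM at ZT8, against 9019 and 9194 CPM, and 8849 and 8828 CPM, in neuron-like nuclei. The part of neuronal RNA in low glial values was not tested.

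Hs3st1 and Hs6st1 departed from that neuronal pattern in level, each with more CPM in a glial class than in neuron-like nuclei. Neuron-like nuclei still gave 45.6 to 59.8% of Hs3st1 UMIs and 68.9 to 72.4% of Hs6st1 UMIs over the 4 libraries. Hs3st1, which places the sulfate that completes the antithrombin-binding site of heparan sulfate, had 80.65 and 68.74 CPM in oligodendrocyte-like nuclei at ZT20 and 114.7 and 126.6 CPM at ZT8, against 14.8 and 14.59 CPM, and 17.1 and 17.4 CPM, in neuron-like nuclei. Oligodendrocyte-like nuclei gave 15.3 and 11.4% of its UMIs at ZT20, and 23.4 and 26% at ZT8. Hs6st1, a broadly used 6-O-sulfotransferase, had 70.13 and 61.56 CPM in microglia-like nuclei at ZT20, and 57.54 and 57.08 CPM at ZT8. These came from 18 to 23 UMIs per library. Over the 4 libraries Hs6st1 had 25.81 to 34.28 CPM in neuron-like nuclei, and 39.89 to 45.31 CPM in the thalamic-like neurons among them.

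**Figure D1:**
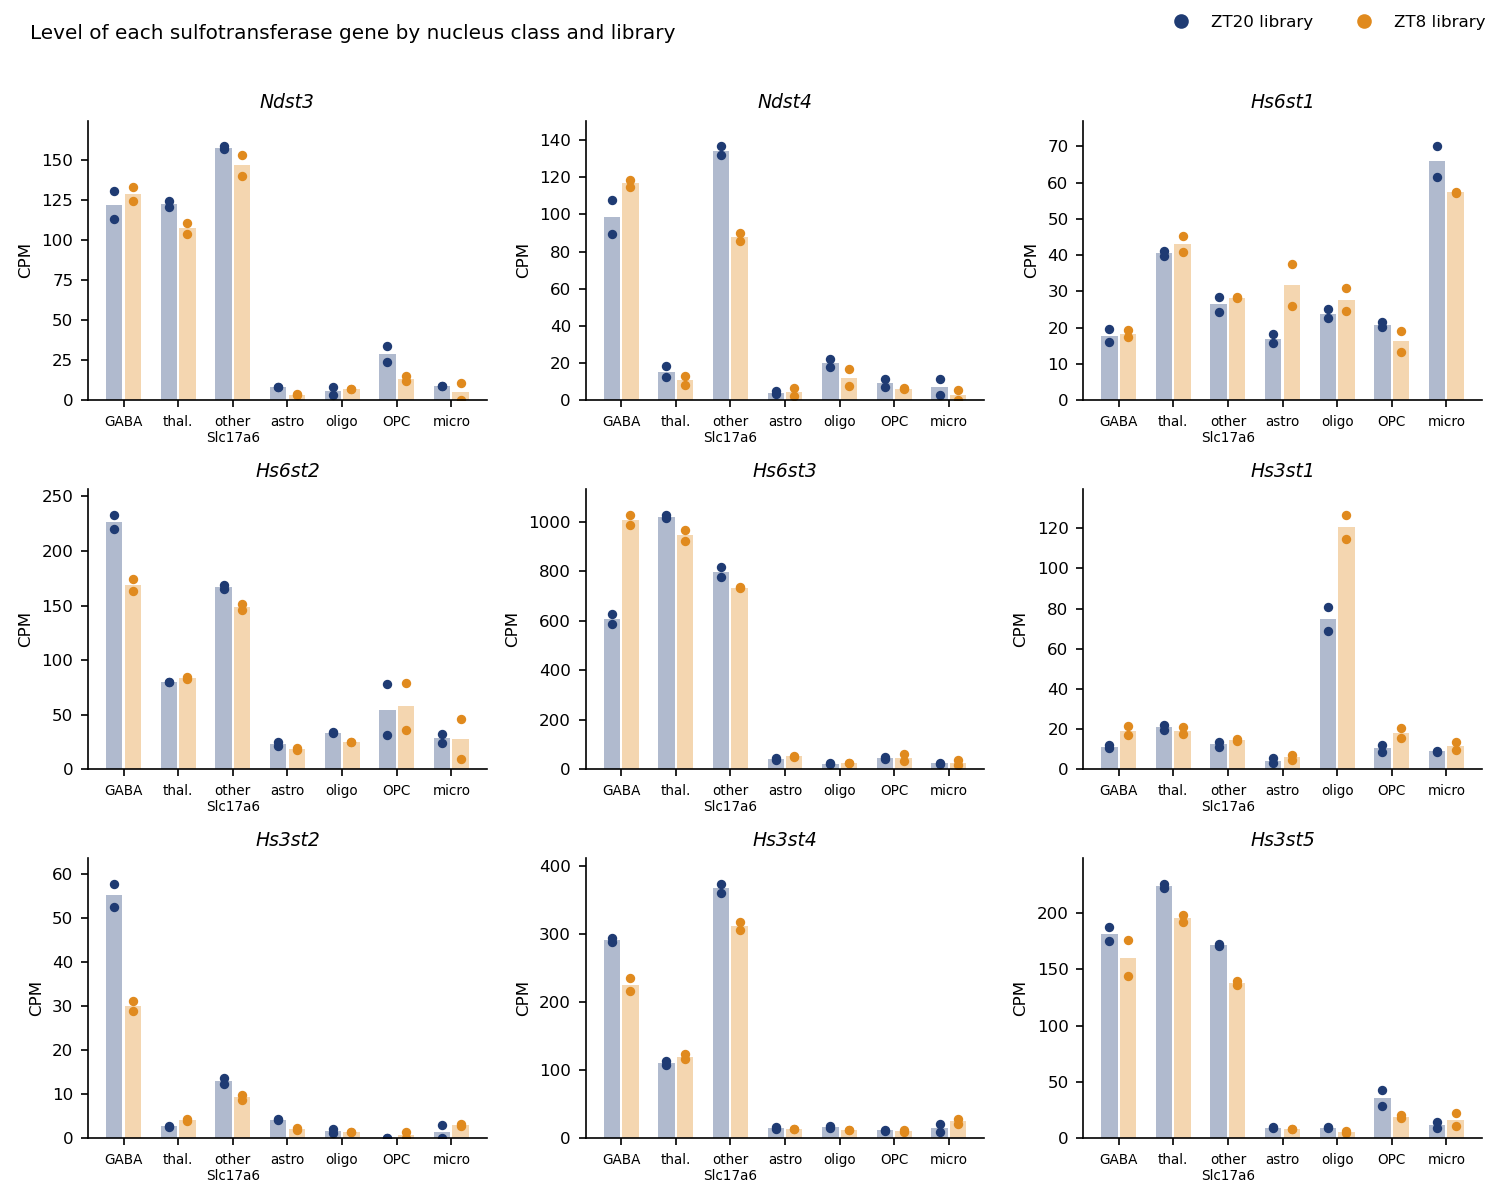
Level of each of the 9 genes (CPM, vertical axes from 0, one panel per gene) in GABAergic-like, thalamic-like and other Slc17a6 neurons, astrocyte-like, oligodendrocyte-like, oligodendrocyte precursor-like (OPC) and microglia-like nuclei. Points are libraries and bars their means, ZT20 left of ZT8; Hs3st1 stands highest in oligodendrocyte-like nuclei, Hs6st1 in microglia-like nuclei, and the other 7 genes in neurons.

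The share of nuclei with at least 1 UMI was set on equal depth by thinning every nucleus to 2000 UMIs. At that depth Hs6st3 was seen in 53.6 and 52.5% of neuron-like nuclei at ZT20, and in 57.4 and 58.2% at ZT8. Unthinned, with median depths of 12534 and 12131 UMIs at ZT20, and 13276 and 14722 UMIs at ZT8, the shares of Hs6st3 were 76.3 and 75.3% at ZT20, and 81 and 81.4% at ZT8. In oligodendrocyte-like nuclei, with unthinned medians of 2844 to 3214 UMIs, the thinned share of Hs6st3 was 4.73 and 4.15% at ZT20, and 4.8 and 5.42% at ZT8. Hs3st2 was sparse, with thinned shares of 3.67 and 3.46% of neuron-like nuclei at ZT20, and 2.41 and 2.06% at ZT8, against 0.245 to 0.537% of oligodendrocyte-like nuclei over the 4 libraries. For Hs3st2 the unthinned neuron-like shares were 11.8 and 11.3% at ZT20, and 8.45 and 8.26% at ZT8. Between 3 and 9 neuron-like nuclei and between 38 and 134 oligodendrocyte-like nuclei per library were too shallow to thin.

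Across all kept nuclei, 5 members were called higher and 3 lower at ZT20 than at ZT8 by edgeR's quasi-likelihood test (adjusted p under 0.05), and 47.7% of all 21040 genes tested were called, 24.3% higher and 23.4% lower. In neuron-like nuclei the count was again 5 higher and 3 lower of 9 tested, against 43.5% of 19579 genes (21.9% higher and 21.5% lower). In the draw of equal nuclei per cluster 3 members were called higher and 0 lower, against 20.8% of 18187 genes (11.1% higher and 9.73% lower), with an unadjusted p under 0.05 also for Hs3st4 and Hs6st3. The median log2 change of the 9 members was 0.21 over all nuclei, 0.18 in neuron-like nuclei and 0.06 in the equal draw, beside medians of 0.0, 0.01 and 0.0 over all genes tested. Since these contrasts may have chosen the members, nothing is read from the counts. The labels do not say that libraries of a time came from separate days, so each p-value is set against the spread of these pooled libraries alone.

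**Figure D2:**
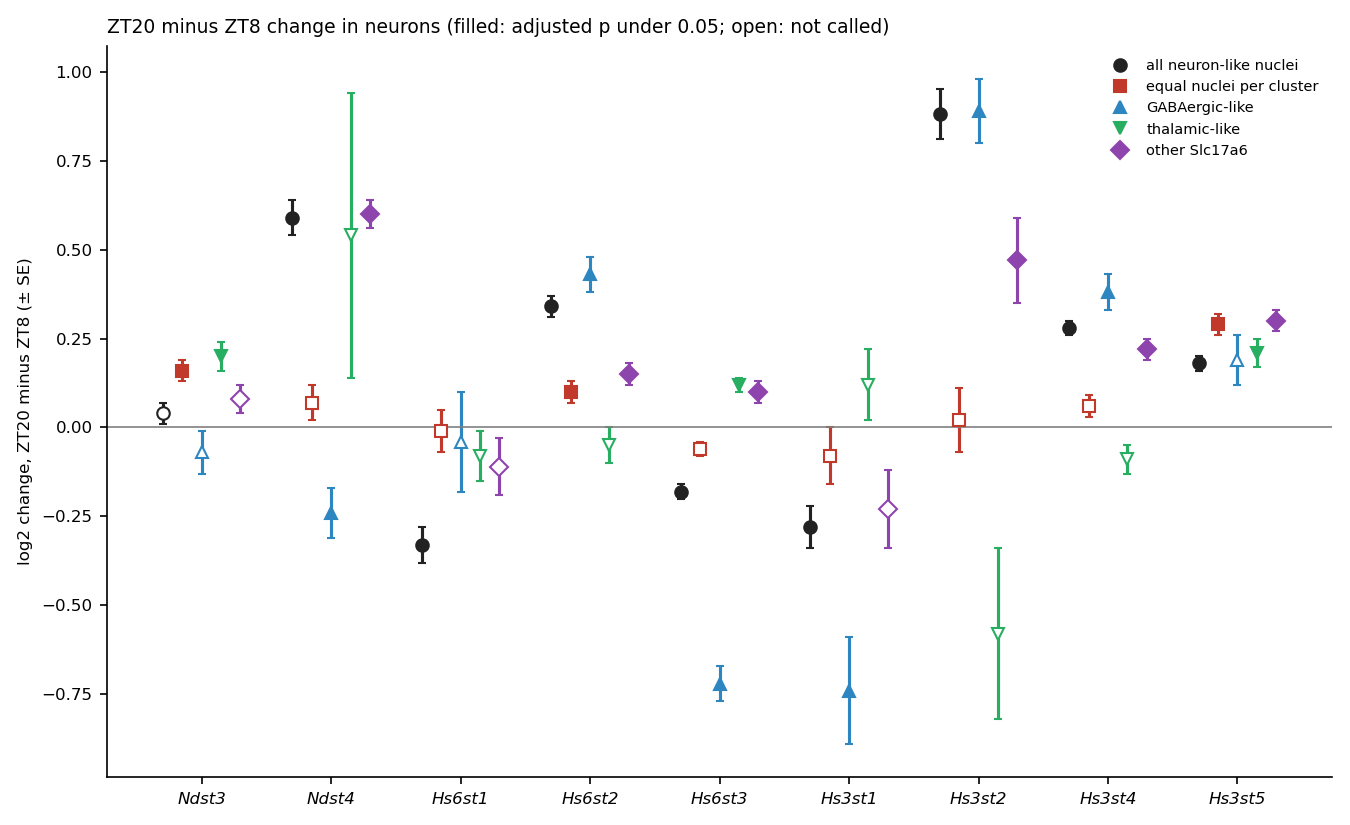
Log2 change, ZT20 minus ZT8 (vertical axis, ± SE), of each gene in neuron-like nuclei, in the equal draw and in GABAergic-like, thalamic-like and other Slc17a6 neurons; filled points are called by edgeR at adjusted p under 0.05. Hs3st2 changed by 0.88 over all neuron-like nuclei and by 0.02 in the equal draw, while Hs3st5 changed by 0.18 and 0.29.

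Ndst3 and Ndst4 encode the NDST forms that are expressed mainly in brain and development and that start sulfation of the chain. Ndst3 lies on mm10 chromosome 3 at 123526166 to 123690853 on the minus strand, and Ndst4 on the same chromosome at 125404076 to 125728899 on the plus strand. Ndst3 had 132 and 136.5 CPM in neuron-like nuclei at ZT20, and 120.6 and 130.7 CPM at ZT8. The ZT20 libraries lay above the ZT8 libraries by a narrow gap, and the log2 change of 0.04 ± 0.03 (SE) was not called (edgeR adjusted p = 0.33). Drawn equally, Ndst3 had 140.1 and 146.1 CPM at ZT20, and 125.1 and 132.9 CPM at ZT8. Both ZT20 libraries were above both ZT8 libraries, with a log2 change of 0.16 ± 0.03 (edgeR adjusted p = 0.00076). In thalamic-like neurons Ndst3 had 120.7 and 124.2 CPM at ZT20, and 104 and 110.6 CPM at ZT8, a log2 change of 0.20 ± 0.04 without overlap (edgeR adjusted p = 0.00031).

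Ndst4 was much more uneven between neuron classes than Ndst3. It had 131.8 and 136.8 CPM in other Slc17a6 neurons (glutamatergic neurons without the thalamic name) at ZT20, and 89.99 and 85.47 CPM at ZT8. The groups did not overlap, and Ndst4 rose by 0.60 ± 0.04 on the log2 scale (edgeR adjusted p = 8.1e-13). With equal nuclei per cluster in this class the log2 change was 0.21 (edgeR adjusted p = 0.0027). Marker sums in these other Slc17a6 neurons moved as well, with thalamic markers at 2177 and 2210 CPM at ZT20, against 3088 and 3176 CPM at ZT8, and Sim1 PVN markers at 219.2 and 180.1 CPM at ZT20, against 28.28 and 34.14 CPM at ZT8. Their part in the rise was not tested. In thalamic-like neurons it had 12.43 and 18.4 CPM at ZT20, and 13.31 and 8.165 CPM at ZT8, which overlapped. In GABAergic-like neurons it had 89.68 and 107.8 CPM at ZT20, and 118.6 and 114.6 CPM at ZT8. There both ZT20 libraries were lower, by -0.24 ± 0.07 on the log2 scale (edgeR adjusted p = 0.022), and without the first ZT20 library the change was -0.11 and not called.

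Over all neuron-like nuclei Ndst4 had 86.3 and 96.32 CPM at ZT20, and 60.69 and 56.44 CPM at ZT8, a log2 change of 0.59 ± 0.05 (edgeR adjusted p = 4.9e-06). Its libraries overlapped in the equal draw, at 75.42 and 80.83 CPM for ZT20, and 78.78 and 70.59 CPM for ZT8, and the log2 change of 0.07 ± 0.05 was not called (edgeR adjusted p = 0.29). The Ndst4 transcript separated neuron clusters strongly. Counted over the 4 libraries together, it ranged over the 33 neuron clusters of at least 50 nuclei between 5.056 CPM in cluster 6, a thalamic-like cluster, and 339 CPM in cluster 21, with a median of 68.78 CPM. Clusters 21 and 5, both other Slc17a6 neurons, and the GABAergic-like cluster 20 were the highest, at 339, 302.9 and 285.9 CPM. Ndst4 stood among the 10 leading genes of clusters 5 and 21 although it was not used to make them.

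The 6-O-sulfotransferases add the sulfate on which binding of fibroblast growth factors and many other ligands depends. Hs6st3, on mm10 chromosome 14 at 119138341 to 119869815 on the plus strand, spans 731 kb, of which 0.234% is exonic, and 1700006F04Rik and 4930404K13Rik overlap it on the same strand. Whether intronic reads were counted is not given in the sources used here, so its reads and those of the overlapping genes may be shared. The direction of Hs6st3 differed between neuron classes. In GABAergic-like neurons it had 627.6 and 584.7 CPM at ZT20, and 985.2 and 1027 CPM at ZT8. Both ZT20 libraries were far below the ZT8 libraries, by -0.72 ± 0.05 on the log2 scale (edgeR adjusted p = 1.9e-13). In thalamic-like neurons Hs6st3 had 1014 and 1027 CPM at ZT20, and 922 and 966.4 CPM at ZT8, and in other Slc17a6 neurons 817.9 and 774.5 CPM at ZT20, and 734.9 and 732.1 CPM at ZT8. In both glutamatergic classes ZT20 was the higher group, by 0.12 ± 0.02 and 0.10 ± 0.03 on the log2 scale (edgeR adjusted p = 5e-05 and 0.0061).

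The makeup of the GABAergic-like neurons differed in part between the times. The clusters with most Hs6st3 were GABAergic-like, namely cluster 29 at 2708 CPM, cluster 23 at 1780 CPM and cluster 28 at 1638 CPM. Cluster 23 held 8 and 5 nuclei at ZT20, against 66 and 91 at ZT8. Nuclei of cluster 29 numbered 28 and 32 at ZT20, against 26 and 29 at ZT8. For cluster 28 they were 33 and 27 at ZT20, against 39 and 21 at ZT8. Cluster 9, GABAergic-like with 324.5 CPM of Hs6st3, held 159 and 168 nuclei at ZT20, against 67 and 45 at ZT8. Hs6st3 was also called lower at ZT20 within GABAergic-like clusters 3 and 13, as given below. The part of these nucleus counts in the fall was not tested. With equal nuclei per cluster within the GABAergic-like class, the log2 change of Hs6st3 was -0.11 and not called (edgeR adjusted p = 0.42). Cluster 23 had too few nuclei at ZT20 for that draw, which held the other 8 GABAergic-like clusters. In thalamic-like neurons the same draw gave 0.02 (edgeR adjusted p = 0.68), and in other Slc17a6 neurons it turned to -0.10 (edgeR adjusted p = 0.043).

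Hs6st2 was found in all neuron classes and rose at ZT20 in GABAergic-like and other Slc17a6 neurons. It lies on mm10 chromosome X at 51387212 to 51681856 on the minus strand. The upstream window of 1 of its 2 start sites in RefSeq's promoter table (GRCm38.p6) is shown because it held AGGTCA on the reverse strand. These are core letters of the element bound by the ROR and REV-ERB clock receptors. The rest of that element was not searched for. The letters read TGACCT here and are in capitals. The site begins 138 bases before RefSeq's start, and the window lies inside the gene bounds above, which are from GENCODE. AGGTCA stood on either strand in 14% of 32851 windows of the same length.
Hs6st2 upstream window, chrX:51681603-51681852, minus strand: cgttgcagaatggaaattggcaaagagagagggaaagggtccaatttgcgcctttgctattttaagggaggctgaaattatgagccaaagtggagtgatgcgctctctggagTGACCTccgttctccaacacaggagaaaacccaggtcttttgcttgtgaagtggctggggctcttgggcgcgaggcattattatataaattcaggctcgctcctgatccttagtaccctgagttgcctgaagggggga
Hs6st2 had 233 and 219.7 CPM in GABAergic-like neurons at ZT20, and 174.5 and 163.6 CPM at ZT8. The groups did not overlap, with a log2 change of 0.43 ± 0.05 (edgeR adjusted p = 2.9e-07). In other Slc17a6 neurons it had 169.2 and 164.8 CPM at ZT20, and 146 and 151.1 CPM at ZT8, a log2 change of 0.15 ± 0.03 (edgeR adjusted p = 0.0013). In thalamic-like neurons it had 79.88 and 80.29 CPM at ZT20, and 84.7 and 82.73 CPM at ZT8, and the log2 change of -0.05 ± 0.05 was not called.

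Over all neuron-like nuclei Hs6st2 changed by 0.34 ± 0.03 on the log2 scale (edgeR adjusted p = 2.7e-10). In the equal draw it had 138.1 and 133.8 CPM at ZT20, and 126.3 and 128.1 CPM at ZT8, a log2 change of 0.10 ± 0.03 (edgeR adjusted p = 0.017). That call ended with DESeq2 (log2 change 0.10), without the first ZT8 library (0.09) and without the first ZT20 library (0.08). Within the GABAergic-like class the equal draw gave 0.08 for Hs6st2, which was not called (edgeR adjusted p = 0.54).

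Hs6st1, on mm10 chromosome 1 at 36068400 to 36106446 on the plus strand, ranged over the neuron clusters between 11.63 CPM in the Sim1 PVN-like cluster 32 and 50.42 CPM in the thalamic-like cluster 18, with a median of 22.04 CPM. It had 29.04 and 25.81 CPM in neuron-like nuclei at ZT20, and 32.04 and 34.28 CPM at ZT8. Both ZT20 libraries were lower, by -0.33 ± 0.05 on the log2 scale (edgeR adjusted p = 2.9e-05). In the equal draw the libraries overlapped and the log2 change was -0.01 ± 0.06 (edgeR adjusted p = 0.95). Hs6st1 was not called by edgeR in any of the 3 neuron classes or 14 clusters tested, and cluster 2 alone had an unadjusted p under 0.05, at a log2 change of 0.35.

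The 3-O-sulfotransferases finish the chain, and their members differ in the site they modify. Hs3st2 and Hs3st4 are forms known mainly from neurons, and products of their type of modification bind the herpes simplex virus entry protein. Hs3st2 lies on mm10 chromosome 7 at 121391859 to 121501770 on the plus strand, where 4933432K03Rik and Gm36736 overlap it on the other strand. Its upstream window from RefSeq's promoter table (GRCm38.p6) is shown because it held a complete cAMP response element, TGACGTCA, which reads the same on both strands. The element is in capitals and begins 69 bases before RefSeq's start. It was found in 1.55% of all 32851 windows. The window shown lies inside the gene bounds given above, which are from GENCODE and start further upstream.
Hs3st2 upstream window, chr7:121392046-121392295, plus strand: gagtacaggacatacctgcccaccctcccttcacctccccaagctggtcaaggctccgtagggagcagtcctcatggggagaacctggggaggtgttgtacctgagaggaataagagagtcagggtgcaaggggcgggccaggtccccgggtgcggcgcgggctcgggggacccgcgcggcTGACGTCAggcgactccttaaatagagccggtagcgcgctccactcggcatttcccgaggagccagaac
Hs3st2 had 19.82 and 18.28 CPM in neuron-like nuclei at ZT20, and 10.35 and 9.707 CPM at ZT8. The ZT20 libraries were the higher ones by 0.88 ± 0.07 on the log2 scale (edgeR adjusted p = 4.5e-10). This was the largest log2 change among the 9 members in neuron-like nuclei.

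Hs3st2 was concentrated in few neurons. Over the 33 clusters its level ranged between 0 and 134 CPM with a median of 9.525 CPM, and GABAergic-like cluster 9, led by Trpc4 and Phactr1, had 134 CPM. In that cluster it had 157.8 and 144.7 CPM at ZT20, and 72.36 CPM in the only ZT8 library with at least 50 nuclei. GABAergic-like neurons held 50.7 and 48.7% of all Hs3st2 UMIs at ZT20, and 33.5 and 33.2% at ZT8. In that class Hs3st2 had 57.84 and 52.68 CPM at ZT20, and 31.22 and 29.02 CPM at ZT8, a log2 change of 0.89 ± 0.09 without overlap (edgeR adjusted p = 1.3e-08).

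The calls for Hs3st2 ended when cluster makeup was held equal. Cluster 9, as given above, had more nuclei at ZT20. Hs3st2 in the equal draw had 12.91 and 12.53 CPM at ZT20, and 12.44 and 12.7 CPM at ZT8, which overlapped, with a log2 change of 0.02 ± 0.09 (edgeR adjusted p = 0.89). Within the GABAergic-like class the equal draw gave 0.10 (edgeR adjusted p = 0.74), and in other Slc17a6 neurons it gave -0.08 (edgeR adjusted p = 0.82) against 0.47 ± 0.12 over all their nuclei (edgeR adjusted p = 0.0025). Of the 6 single clusters in which Hs3st2 passed the count filter, 0 were called, with log2 changes between -0.59 and 0.0. At unadjusted p under 0.05 it was lower at ZT20 in clusters 1 and 12.

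Hs3st4, on mm10 chromosome 7 at 123982869 to 124398989 on the plus strand, marked single neuron clusters. Gm15338 overlaps it on the same strand and Gm27040 on the other. Cluster 17, other Slc17a6 neurons led by Hs3st4 itself and Nwd2, had 1558 CPM, against a median of 217.4 CPM over the 33 clusters. In that cluster Hs3st4 had 1581 and 1597 CPM at ZT20, and 1430 CPM in the only ZT8 library with at least 50 nuclei. Clusters 22 and 26 followed at 860.7 and 762.1 CPM, and cluster 26 held 63 and 74 nuclei at ZT20, against 1 and 0 at ZT8.

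Hs3st4 had 269.9 and 268.8 CPM in neuron-like nuclei at ZT20, and 213.5 and 214.9 CPM at ZT8. The groups were far apart, with a log2 change of 0.28 ± 0.02 (edgeR adjusted p = 2.9e-10). In the equal draw it had 244.1 and 238.3 CPM at ZT20, and 237 and 229.6 CPM at ZT8, a log2 change of 0.06 ± 0.03 that was not called (edgeR adjusted p = 0.14). In GABAergic-like neurons it changed by 0.38 ± 0.05 (edgeR adjusted p = 1.2e-06), and by -0.03 with equal nuclei per cluster (edgeR adjusted p = 0.86). In other Slc17a6 neurons the changes were 0.22 ± 0.03 (edgeR adjusted p = 1.5e-06) and 0.12 with equal nuclei per cluster (edgeR adjusted p = 0.044).

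**Figure D3:**
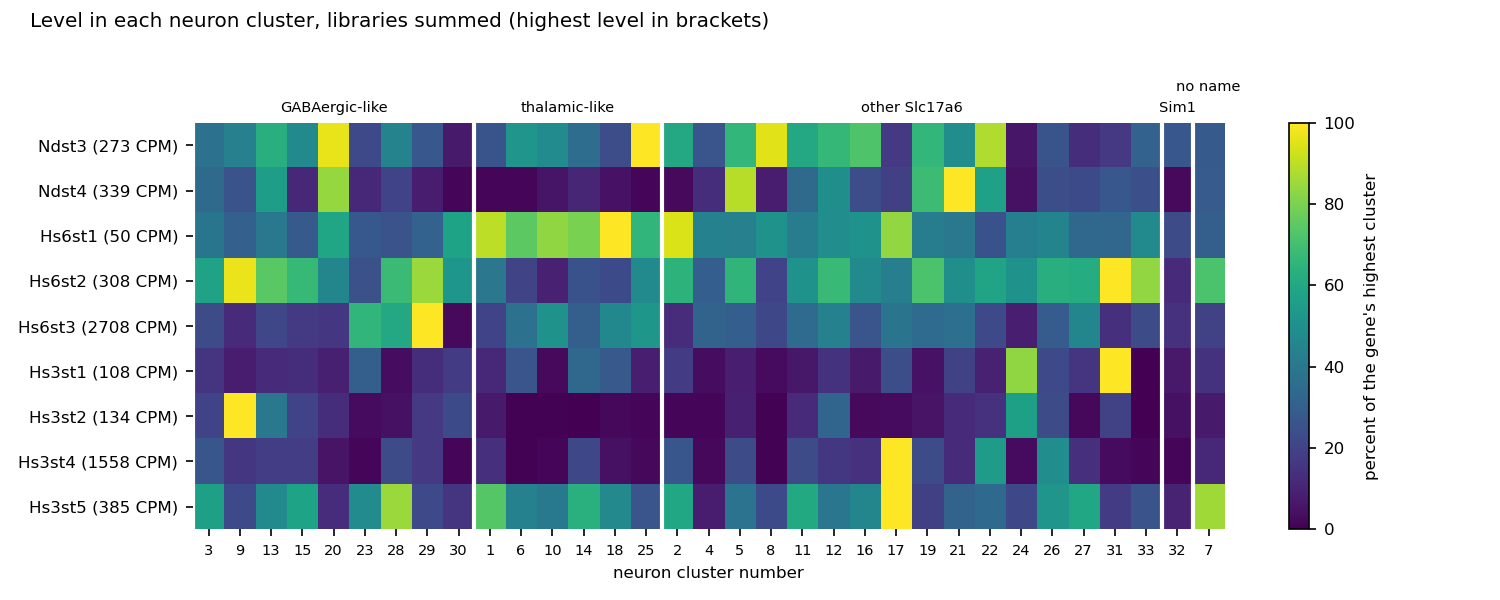
Level of each gene (rows) in each of the 33 neuron clusters with at least 50 nuclei (columns, cluster numbers), libraries summed, coloured as a percentage of that gene's highest cluster, whose CPM is in brackets. Hs3st4 peaks in cluster 17 at 1558 CPM, Hs3st2 in cluster 9 at 134 CPM, Hs6st3 in cluster 29 at 2708 CPM and Ndst4 in cluster 21 at 339 CPM.

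Hs3st5 was the member whose rise at ZT20 was present in the most neuron clusters. It can make both the antithrombin-binding and the viral protein-binding site, and it lies on mm10 chromosome 10 at 36506814 to 36834397 on the plus strand. Its upstream window in RefSeq's promoter table is shown because the gene rose within clusters. None of the 4 motifs searched was in these letters, and the window had 62% G and C.
Hs3st5 upstream window, chr10:36506557-36506806, plus strand: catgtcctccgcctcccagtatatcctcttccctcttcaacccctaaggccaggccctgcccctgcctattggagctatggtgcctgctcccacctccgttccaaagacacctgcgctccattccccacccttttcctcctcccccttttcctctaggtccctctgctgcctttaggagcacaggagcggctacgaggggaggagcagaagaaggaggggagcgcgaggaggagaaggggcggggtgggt
The motifs were the E-box CACGTG, the D-box TTATGNAA, the letters AGGTCA and the element TGACGTCA, each on both strands. The E-box stood in 6.02% and the D-box in 3.07% of all windows. RefSeq's table held 10 windows for 8 of the 9 members. The windows above, of Hs6st2 and Hs3st2, were the only 2 of the 10 with any of these motifs.

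In neuron-like nuclei Hs3st5 had 196.2 and 195.5 CPM at ZT20, and 167.2 and 166.9 CPM at ZT8. Libraries of a time nearly coincided and the times were apart, with a log2 change of 0.18 ± 0.02 (edgeR adjusted p = 1.1e-06). In the equal draw it had 190 and 189.2 CPM at ZT20, and 162.8 and 148.5 CPM at ZT8, and the log2 change was 0.29 ± 0.03 (edgeR adjusted p = 2.7e-07). Cluster 7, neurons with no class name, ranked second for Hs3st5 at 329.9 CPM and held 260 and 249 nuclei at ZT20, against 16 and 17 at ZT8. In thalamic-like neurons Hs3st5 had 226 and 222.4 CPM at ZT20, and 192.3 and 198.5 CPM at ZT8. In other Slc17a6 neurons it had 172.3 and 171.3 CPM at ZT20, and 136.3 and 139.6 CPM at ZT8. Neither class overlapped, with log2 changes of 0.21 ± 0.04 and 0.30 ± 0.03 (edgeR adjusted p = 1.5e-06 and 5.7e-08), and with equal nuclei per cluster of 0.35 and 0.26 (edgeR adjusted p = 9.1e-09 and 7.2e-05). In GABAergic-like neurons the libraries overlapped, at 175.6 and 188 CPM for ZT20, and 176.1 and 144.5 CPM for ZT8, and the log2 change of 0.19 ± 0.07 was not called (edgeR adjusted p = 0.085). Without the first ZT8 library it was 0.33 and called.

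Hs3st1, on mm10 chromosome 5 at 39613935 to 39755475 on the minus strand, was low in most neurons and high in few. Its highest neuron clusters, 31 and 24, had 108.4 and 90.53 CPM from 65 and 112 UMIs, against a median of 13.99 CPM over the 33 clusters. Both are other Slc17a6 clusters led by Ebf2. Hs3st1 had 12.03 and 10.66 CPM in GABAergic-like neurons at ZT20, and 21.31 and 17.09 CPM at ZT8. Both ZT20 libraries were lower, by -0.74 ± 0.15 on the log2 scale (edgeR adjusted p = 0.00058). The call ended with DESeq2 (-0.75) and with equal nuclei per cluster (-0.48, edgeR adjusted p = 0.28). Over all neuron-like nuclei the log2 change was -0.28 ± 0.06 (edgeR adjusted p = 0.00061), and in the equal draw -0.08 ± 0.08 (edgeR adjusted p = 0.52).

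Among the neuron classes, 6 members were called in GABAergic-like neurons, namely Hs3st2, Hs3st4 and Hs6st2 higher and Hs3st1, Hs6st3 and Ndst4 lower, against 16.4% of 15552 genes (9.11% higher and 7.32% lower). In thalamic-like neurons 3 were called, all higher (Hs3st5, Hs6st3 and Ndst3), against 19% of 16014 genes (10.3% higher). In other Slc17a6 neurons 6 were called, all higher (Hs3st2, Hs3st4, Hs3st5, Hs6st2, Hs6st3 and Ndst4), against 28.7% of 17753 genes (14.3% higher). With equal nuclei per cluster in GABAergic-like neurons, the smallest edgeR adjusted p of a member was 0.088 (Hs3st5), and 718 genes were called in all. That draw held 345 nuclei per library, from 8 clusters and without cluster 23.

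Single neuron clusters hold the makeup more nearly fixed, and 14 had at least 50 nuclei in every library. Over the 114 pairs of a member and a cluster that passed the count filter, 9 were called higher and 8 lower, against 2.86% of 163698 pairs of all genes (1.77% higher and 1.09% lower). Hs3st5 gave 6 of the 9 higher calls and Hs6st3 gave 4 of the 8 lower ones. Hs3st5 was higher at ZT20 in 13 of 14 clusters by its log2 change, with a median of 0.36. It was called in clusters 4, 5, 6, 10, 15 and 18, which include GABAergic-like, thalamic-like and other Slc17a6 neurons. The largest difference was in GABAergic-like cluster 15, with 266.2 and 275.5 CPM at ZT20, and 101.8 and 136.2 CPM at ZT8. That is a log2 change of 1.15 ± 0.16 without overlap (edgeR adjusted p = 0.00021). Thalamic-like cluster 6 had 230 and 208.7 CPM at ZT20, and 143.6 and 166.4 CPM at ZT8, a log2 change of 0.49 ± 0.08 (edgeR adjusted p = 0.00011). The count of 6 clusters for Hs3st5 fell to 2 with DESeq2, to 2 without the first ZT8 library and to 3 without the second ZT20 library.

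**Figure D4:**
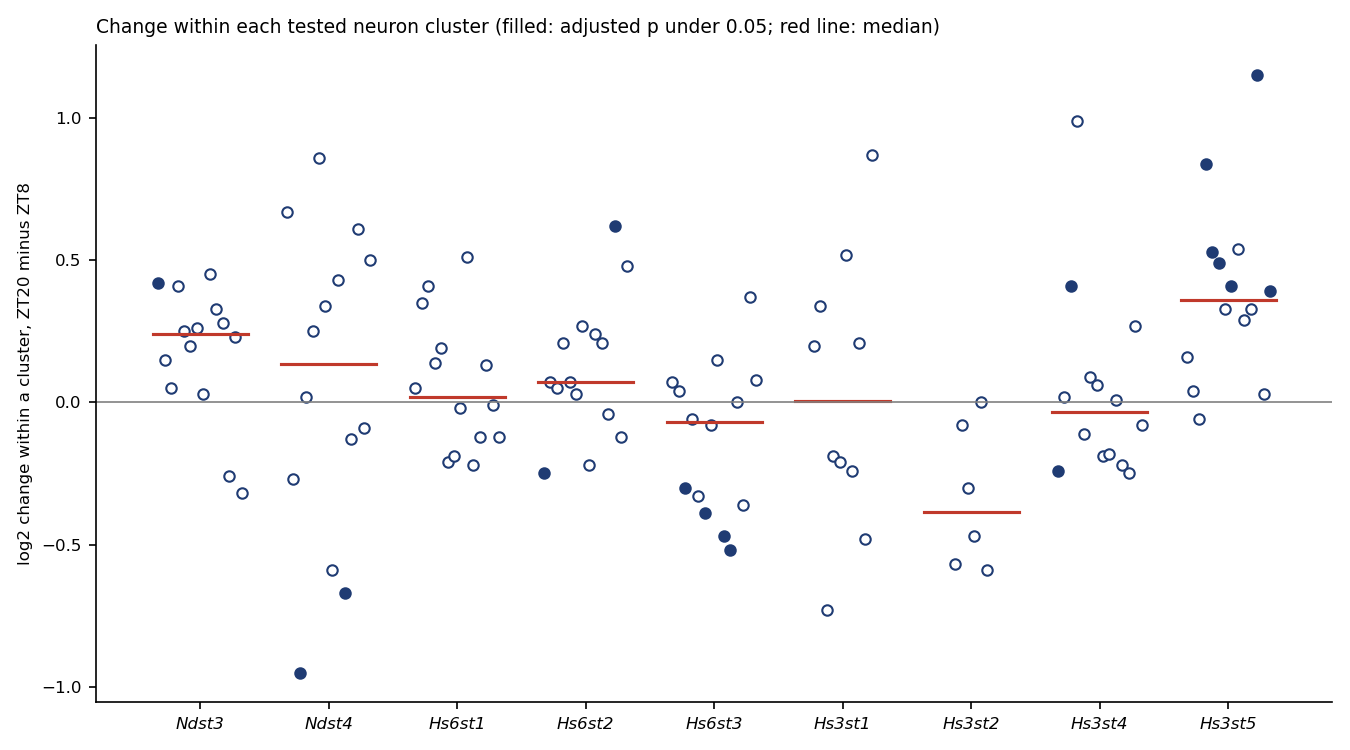
Log2 change, ZT20 minus ZT8 (vertical axis), of each gene within each of the 14 neuron clusters tested; each point is a cluster, filled where edgeR's adjusted p is under 0.05, and the red line is the median. Hs3st5 has 6 filled points, all above 0, with a median of 0.36, and Hs6st3 has 4 filled points, all below 0, with a median of -0.07.

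Hs6st3 was called lower at ZT20 in clusters 3, 6, 12 and 13, by -0.30, -0.39, -0.47 and -0.52 on the log2 scale. Its log2 change was below 0 in 8 of the 14 clusters and above 0 in 6. At unadjusted edgeR p under 0.05, without a call, it was higher in clusters 10 and 16, by 0.15 and 0.37. Cluster 15 went the other way at that threshold, by -0.36. In GABAergic-like cluster 13 it had 465 and 511.2 CPM at ZT20, and 745.3 and 676.2 CPM at ZT8 (edgeR adjusted p = 0.00021). In thalamic-like cluster 6 it had 883.3 and 772.6 CPM at ZT20, and 1040 and 1105 CPM at ZT8 (edgeR adjusted p = 1.5e-05). Neither cluster overlapped, while the whole thalamic-like class was higher at ZT20, as given above. The count of 4 clusters for Hs6st3 fell to 2 with DESeq2 and to 2 without the first ZT8 library.

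Ndst4 was called lower at ZT20 in GABAergic-like clusters 3 and 13. Its log2 change was above 0 in 8 of the 14 clusters and below 0 in 6, with a median of 0.13. At unadjusted edgeR p under 0.05, without a call, it was higher in clusters 1, 5 and 12, by 0.67, 0.25 and 0.43. Cluster 10 went the other way at that threshold, by -0.59. In cluster 3 it had 92.95 and 97.14 CPM at ZT20, and 221.8 and 155.9 CPM at ZT8, a log2 change of -0.95 ± 0.13 (edgeR adjusted p = 9.2e-06). In cluster 13 it had 130.9 and 166.8 CPM at ZT20, and 251.6 and 232.7 CPM at ZT8, a log2 change of -0.67 ± 0.13 (edgeR adjusted p = 0.00024). In cluster 5, the larger of the Ndst4-rich clusters, both ZT20 libraries were above the ZT8 libraries at 329.9 and 313.1 CPM, against 275.6 and 263.8 CPM, and the log2 change of 0.25 ± 0.08 was not called (edgeR adjusted p = 0.12). Ndst3 was called in cluster 1 only, by 0.42 ± 0.10 (edgeR adjusted p = 0.0028), and its log2 change was above 0 in 12 of 14 clusters with a median of 0.24. Hs3st4 was called higher in cluster 3 and lower in cluster 1, and Hs6st2 higher in cluster 15 and lower in cluster 1. The call of Hs6st2 in cluster 1 ended under a stricter filter on nuclei.

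**Figure D5:**
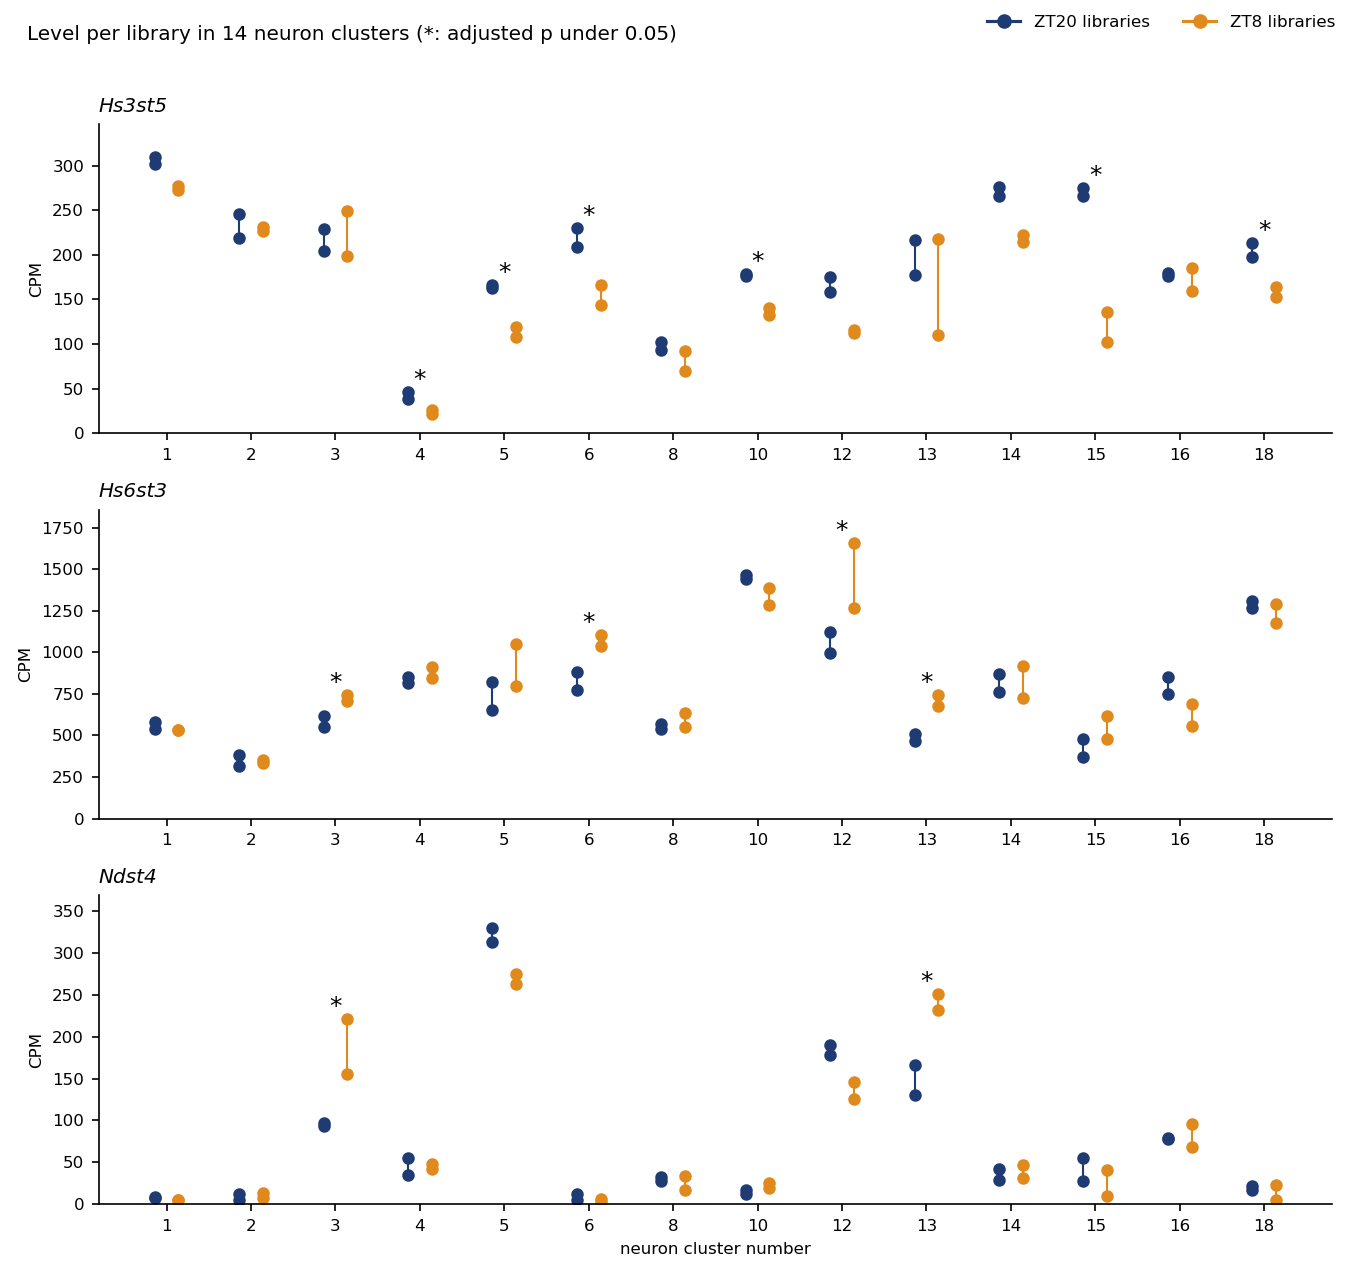
Level of Hs3st5, Hs6st3 and Ndst4 (CPM, vertical axes from 0) in each library of the 14 neuron clusters (horizontal axis), ZT20 left of ZT8 in each cluster; points are libraries, lines join libraries of a time and stars mark an edgeR adjusted p under 0.05. The ZT20 libraries of Hs3st5 lie above both ZT8 libraries in starred clusters 4, 5, 6, 10, 15 and 18. They also do so, without a star, in clusters 1, 8, 12 and 14. Those of Ndst4 lie below both ZT8 libraries in starred clusters 3 and 13 and, without a star, in cluster 10. They lie above both ZT8 libraries, without a star, in clusters 1, 5 and 12.

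The ZT20 to ZT8 change was compared directly between GABAergic-like and all glutamatergic neurons in a model with library as a block, class, and a term for time by class, which was tested. Of the 9 members, 6 had a called difference of changes, against 9.1% of 18542 genes. Ndst4 differed most, by -1.12 ± 0.07 on the log2 scale (edgeR adjusted p = 1.2e-11), followed by Hs6st3 at -0.74 ± 0.05 (edgeR adjusted p = 1.5e-11). With equal nuclei per cluster the smallest edgeR adjusted p of a member was 0.063 (Ndst3), and Ndst4 was at -0.55 (edgeR adjusted p = 0.6) and Hs6st3 at -0.05 (edgeR adjusted p = 0.88).

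In glia, 3 calls were made among the members. Hs3st1 fell at ZT20 in oligodendrocyte-like nuclei, with the levels given above, by -0.66 ± 0.11 on the log2 scale and without overlap (edgeR adjusted p = 2.8e-07); 10.3% of 12129 genes were called in that class. In the same nuclei the summed oligodendrocyte markers were 17239 and 17386 CPM at ZT20, and 17944 and 17810 CPM at ZT8. The Sim1 PVN markers were 539.4 and 399.2 CPM at ZT20, and 37.52 and 53.59 CPM at ZT8, and their part in the result was not tested. Ndst4 had 22.09 and 17.66 CPM in oligodendrocyte-like nuclei at ZT20, and 16.6 and 7.485 CPM at ZT8, from 25 to 46 UMIs per library. It was called higher by 0.81 ± 0.26 (edgeR adjusted p = 0.023), and the call ended without the second ZT8 library (0.29) and without the first ZT20 library (0.62).

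In astrocyte-like nuclei Hs6st1 had 18.32 and 15.69 CPM at ZT20, and 26.08 and 37.61 CPM at ZT8, from 26 to 63 UMIs per library. Both ZT20 libraries were lower, by -0.85 ± 0.24 on the log2 scale (edgeR adjusted p = 0.023), and 6.33% of 12092 genes were called in astrocyte-like nuclei. The call ended without the second ZT8 library (-0.55), without the first ZT20 library (-0.96) and without the second ZT20 library (-0.74). The summed oligodendrocyte markers in these nuclei were 568.9 and 611.2 CPM at ZT20, and 925.1 and 918.7 CPM at ZT8. The Sim1 PVN markers there were 391.1 and 393.4 CPM at ZT20, and 100.7 and 105.1 CPM at ZT8. The part of either set in the result was not tested. In oligodendrocyte precursor-like and microglia-like nuclei 0 members were called by edgeR, of 6 and 2 tested, against 1.22% of 9864 and 0.474% of 7168 genes, and the members for which DESeq2 gave an adjusted p (3 in precursors and both in microglia) were not called. At unadjusted p under 0.05, Hs3st5 and Ndst3 were higher at ZT20 in the precursors. The ZT20 to ZT8 change of no member differed by an adjusted p under 0.05 between astrocyte-like and neuron-like nuclei (edgeR; 3.08% of 19572 genes called, and Hs6st1 and Ndst3 at unadjusted p under 0.05).

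Vascular and wall cells were too few to test, and the clusters named here were picked after their values were seen. Mural-like cluster 24 had 318.7 CPM of Ndst3 from 90 UMIs in 93 nuclei, and mural-like cluster 22 had 48.59 CPM from 37 UMIs. Fibroblast-like cluster 26 had 283.9 CPM of Hs3st1 from 84 UMIs in 85 nuclei, and fibroblast-like cluster 25 had 28.34 CPM. Hs3st2 had 0 UMIs in mural-like nuclei, which allows up to 65.2 CPM in the shallowest library (3 counts).

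Around the 9 genes, the rest of the pathway was counted from lists chosen with earlier results known. Of 59 further genes 56 passed the filter in neuron-like nuclei, and 15 were called higher and 12 lower at ZT20, beside the 43.5% of all genes given above. Of the 53 tested in the equal draw, 8 were higher and 4 lower, beside 20.8% of all genes (11.1% higher and 9.73% lower). Of 13 core proteins 4 were higher and 4 lower in neuron-like nuclei. Gpc4, a glypican, had 10.7 and 10.39 CPM at ZT20, and 3.086 and 2.884 CPM at ZT8, a log2 change of 1.77 ± 0.10 (edgeR adjusted p = 1.3e-12), and in the equal draw 0.20, not called. Gpc3, another glypican, had 48.14 and 47.8 CPM at ZT20, and 26.41 and 25.65 CPM at ZT8. Gpc3 rose by 0.83 ± 0.04 on the log2 scale (edgeR adjusted p = 2.4e-13) and by 0.22 in the equal draw, where it was also called.

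Of the 5 other sulfotransferases of the same families, 3 fell at ZT20. Hs3st3a1 had 5.215 and 5.633 CPM at ZT20, and 11.47 and 10.88 CPM at ZT8, a log2 change of -1.09 ± 0.09 (edgeR adjusted p = 4.9e-10), and -0.36 in the equal draw, also called. Hs3st3b1 had 5.857 and 5.94 CPM at ZT20, and 10.43 and 10.93 CPM at ZT8, a log2 change of -0.91 ± 0.08 (edgeR adjusted p = 6.6e-09), and -0.18 in the equal draw, not called. These 2 genes encode nearly identical sulfotransferase domains, and whether that affected the reads counted for either was not tested. Ndst1, the general NDST form, had 48.14 and 44.96 CPM at ZT20, and 55.3 and 56.16 CPM at ZT8. It was lower by -0.31 ± 0.04 on the log2 scale (edgeR adjusted p = 6.3e-07) and by -0.18 in the equal draw, both called. Ndst2 was not called, and Hs3st6 did not pass the filter, with 3 and 6 UMIs over all nuclei at ZT20, and 3 and 4 at ZT8.

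Hs2st1, which adds the 2-O-sulfate, had 132.2 and 132.7 CPM in neuron-like nuclei at ZT20, and 103.8 and 106.4 CPM at ZT8. It rose by 0.28 ± 0.03 on the log2 scale (edgeR adjusted p = 7.5e-09) and by 0.11 in the equal draw, both called, while the epimerase gene Glce was not called, at -0.06 and 0.04 in the equal draw. Xylt1, which starts the linker, rose by 0.69 and Xylt2 fell by 0.50 on the log2 scale, and neither was called in the equal draw (0.07 and 0.0). Ext1 of the chain polymerase rose by 0.14 and Extl3 fell by 0.21, with 0.05 and 0.05 in the equal draw. The endosulfatase gene Sulf1, whose product removes 6-O-sulfate, had 70.54 and 72.43 CPM at ZT20, and 46.29 and 52.52 CPM at ZT8, a log2 change of 0.48 ± 0.04 (edgeR adjusted p = 1.3e-07), and 0.12 in the equal draw, not called. Sulf2 was not called, at 0.13 and 0.03 in the equal draw. Of the 6 genes of sulfate donor supply 3 rose and 0 fell, and Papss2, which makes the donor, rose by 0.26 and by 0.33 in the equal draw. Bpnt1, which clears a by-product of sulfation, rose by 0.23, and its 0.17 in the equal draw was not called.

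Among 8 genes of lysosomal breakdown 1 rose and 2 fell. Arsg, a glucosamine 3-O-sulfatase that removes the 3-O-sulfate, had 12.41 and 10.98 CPM at ZT20, and 18.68 and 18.45 CPM at ZT8. Arsg fell by 0.72 on the log2 scale (edgeR adjusted p = 8.6e-09) and by 0.58 in the equal draw, and Gusb rose by 0.49, with 0.14, not called, in the equal draw. In the list for chondroitin and dermatan sulfate, a different sugar chain, 2 were higher and 1 lower of 9 tested, with Ust at 0.31 and Chst11 at -0.22, both called. In the equal draw Ust was at 0.14 and Chst11 at 0.03, neither called.

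Over the 33 neuron clusters, the genes whose levels were most like those of a member were found by Pearson's r of log2(CPM + 10) over 6030 genes. The clusters share libraries, and depth differs between them, so these values are descriptions. Hs6st1 was most like Vav3 (r = 0.84) and Farp1 (0.83), and Ndst4 most like Pdcd7 and Srrm1 (0.83 each). Hs3st2 was most like Appl1 (0.8) and Kcnip2 (0.77), Hs6st2 like Unc5a (0.79) and Eftud2 (0.78), and Hs3st4 like Tbc1d12 (0.77) and P2ry12 (0.7). P2ry12 lies inside Med12l on the opposite strand, and Med12l is the second gene for Hs3st5 (0.61) after Edil3 (0.67). Hs6st3 was most like Rnf180 (0.74) and Bend6 (0.66), Ndst3 like Dsel (0.74) and Ankrd44 (0.72), and Hs3st1 like Raph1 (0.73) and Fam129a (0.72). Among the members themselves the highest r were 0.56 for Hs3st4 with Hs3st5 and 0.54 for Hs3st2 with Hs6st2, and the lowest was -0.56 for Hs3st1 with Ndst3.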

How the data were processed

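Nuclei were isolated on a sucrose gradient and sequenced with 10x 3′ v3 chemistry, per the labels' protocols. The deposited matrices hold whole-number UMI counts per gene and barcode, made with Cell Ranger 7.0.0 per the file headers; STAR 2.6 and mm10 are named in the submitters' processing notes. Intron and strand settings of the counting are not given in the sources used here.

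From the deposited counts, barcodes needed 500 detected genes or more and a mitochondrial share of UMIs no higher than 5%, and the nuclei with the highest Scrublet scores were removed as doublets at 0.8% per 1000 nuclei (326 to 702 per library). Kept nuclei were clustered in scanpy 1.11.5 with leidenalg 0.10.2 (3000 variable genes, 40 components, 20 neighbours, resolution 1). Left out were 68 pathway genes, mitochondrial genes and a further list of genes. This gave 34 clusters, 22 of them named from marker genes, and 36 neuron clusters. A name also needed a low median doublet score, and a neuron name a median of at least 2000 UMIs. Clusters 1 and 4 of the 34 matched neuron markers best but stayed unnamed under that depth rule. They held 6866 and 2818 nuclei, with medians of 894 and 824 UMIs. Unnamed clusters held 44.1 and 52.1% of nuclei at ZT20, and 30.2 and 31.6% at ZT8. Names were rebuilt here and may differ from the study's.

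Counts were summed per library and class with at least 50 nuclei in every library and tested with edgeR 4.0.16 (limma 3.58.1, R 4.3.3; filterByExpr, TMM, robust quasi-likelihood fit), with Benjamini-Hochberg adjustment over all genes tested and a threshold of 0.05. SE are those of the log2 change. The scripts were tested on simulated data. Alternatives were DESeq2 1.42.0, other size factors, no count filter, stricter nucleus filters, each library left out, the replicate block and draws of equal nuclei per cluster. A count of 0 was given a floor of 3 counts. Floors cover counting error only, while the SE also include the spread between libraries estimated by the fit.

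The members, the pathway lists and the marker lists were chosen with earlier results of these data known. Named were all 9 members, the other genes of their families and of the epimerase and 2-O-sulfotransferase list, and in each other list up to 2 genes with the smallest p in neuron-like nuclei, plus per member the 2 genes of highest r over clusters among genes reaching 50 CPM. Upstream windows were 250 bases. Gene positions are from GENCODE on mm10.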

Additional observations from a re-analysis of the deposited data

Results flagged for a closer look

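For 6 of the 9 genes the change between ZT20 and ZT8 differed between GABAergic-like and glutamatergic neurons by a test of the difference itself (edgeR interaction term, log2 change in GABAergic-like minus that in glutamatergic neurons), and 9.1% of all 18542 genes were called in this test. The genes were chosen by their values in these libraries, so the count is a description. Ndst4 differed by -1.12 ± 0.07 (SE, adjusted p = 1.2e-11) and Hs6st3 by -0.74 ± 0.05 (adjusted p = 1.5e-11). Hs3st1 differed by -0.57 ± 0.17 (adjusted p = 0.033) and Ndst3 by -0.23 ± 0.07 (adjusted p = 0.029). Hs3st2 differed by 0.44 ± 0.13 (adjusted p = 0.039) and Hs6st2 by 0.24 ± 0.06 (adjusted p = 0.0064).

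With equal nuclei per cluster the edgeR differences were -0.55 for Ndst4 (adjusted p = 0.6), -0.05 for Hs6st3 (0.88), -0.45 for Hs3st1 (0.61), -0.28 for Ndst3 (0.063), 0.19 for Hs3st2 (0.85) and -0.02 for Hs6st2 (0.97). Leaving out 1 library ended the call of Hs3st2 in all 4 cases, at 0.42 to 0.46. The call of Hs3st1 ended without the first ZT8 library (-0.37) or the second ZT20 library (-0.46). The call of Hs6st2 ended without the second ZT8 library (0.19) or the first ZT20 library (0.20). The call of Ndst3 ended without the first ZT8 (-0.22), the second ZT8 (-0.23) or the first ZT20 library (-0.13). The calls of Ndst4 and Hs6st3 held in all 4 cases.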

How the results depend on the processing

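In classes, all nuclei and the differences between classes, 737 member changes kept their direction and side of the threshold, 20 gained a call, 38 lost it and 35 reversed, of which 31 were not called to begin with. Within single clusters, the number of clusters called for a member stayed the same or close to it in 44 cases and moved further in 37. DESeq2 called fewer genes: 6409 over all nuclei, 4805 in neuron-like nuclei, 1124 in the equal draw, 720 in GABAergic-like, 928 in thalamic-like and 1931 in other Slc17a6 neurons, 136 in astrocyte-like, 437 in oligodendrocyte-like, 7 in precursor-like and 1 in microglia-like nuclei, and 878 summed over 14 clusters. With equal nuclei per cluster, 718 genes were called in GABAergic-like, 2010 in thalamic-like and 1636 in other Slc17a6 neurons, and 198 in the difference of changes. Microglia-like nuclei gave 66 genes with no count filter. Leaving out 1 library gave 8165 to 9451 genes over all nuclei, 6955 to 7622 in neuron-like nuclei, 2613 to 3043 in the equal draw, 1814 to 2293 in GABAergic-like, 2121 to 2275 in thalamic-like and 3951 to 4221 in other Slc17a6 neurons, 81 to 541 in astrocyte-like, 726 to 912 in oligodendrocyte-like, 43 to 175 in precursor-like and 18 to 134 in microglia-like nuclei, 1310 to 1511 in the GABAergic-like minus glutamatergic difference, 357 to 402 in the astrocyte-like minus neuron-like difference and 3079 to 3438 over 14 clusters.

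The labels do not state that libraries of the same replicate number are paired. Deviations of same-number libraries had a correlation of -0.015 over 17676 genes. With 2 pairs this value cannot show whether such libraries share a day or batch. With the replicate block 81 genes were called in microglia-like nuclei, where Hs6st2 turned to 0.05, and 5692 summed over the clusters; Hs3st5 in GABAergic-like neurons became called at 0.19 (edgeR adjusted p = 0.0072).

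Leaving out 1 library turned the direction of changes that were not called. Their ranges were -0.02 to 0.14 for Ndst3 over all nuclei and -0.02 to 0.1 over neuron-like nuclei, and -0.08 to 0.07 for Hs6st1 and -0.01 to 0.16 for Ndst4 in the equal draw. In GABAergic-like neurons they were -0.2 to 0.11 for Hs6st1 and -0.17 to 0.02 for Ndst3, in oligodendrocyte-like nuclei -0.96 to 0.2 for Ndst3, in precursors -0.81 to 0.61 for Hs6st2 and -0.43 to 0.42 for Hs6st3, and in microglia -0.7 to 1.54 for Hs6st2. In GABAergic-like minus glutamatergic they were -0.01 to 0.14 for Hs3st4 and -0.09 to 0.22 for Hs3st5. In astrocyte-like minus neuron-like they were -0.64 to 0.18 for Hs3st1, -1.2 to 0.15 for Ndst4, -0.07 to 0.18 for Hs6st2, -0.2 to 0.02 for Hs3st4, -0.01 to 0.09 for Hs3st5 and -0.27 to 0.02 for Hs6st3. Neuron clusters at resolution 2 gave Hs3st1 0.07 and Hs3st4 -0.0 in the equal draw. Equal nuclei per cluster gave Hs3st4 -0.03 in GABAergic-like, Hs6st2 0.0 in thalamic-like, Hs3st2 -0.08, Hs6st1 0.17 and Hs6st3 -0.1 in other Slc17a6 neurons, and Hs3st4 -0.09 and Hs6st2 -0.02 in the difference of changes. The draws of equal nuclei within a neuron class or for the difference of changes, the left-out libraries for the differences of changes, and all alternatives within single clusters were chosen after seeing the data. Other random draws of the equal draw called Hs6st3 at -0.09 and -0.08, and one called Ndst4 at 0.17. The causes were not tested, and where 1 library was left alone it was assumed to vary like the other group.

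With 2 pooled libraries per time, day, batch and punch position cannot be told apart from time, and nuclei of the clusters led by Sim1 or Oxt were fewer at ZT8.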
